A study of Mus musculus with 9 samples.

Results

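Marker genes of T cells, B cells and natural killer (NK) cells were followed in whole mouse skin. The set was chosen by name, and a gene was measured where a probe set of the array was annotated to that gene alone. Of 33 genes in the set, 31 were measured, by 46 probe sets, out of 12393 genes and 20380 probe sets in all. Lck and Il2rg were not analysed here.

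RNA came from skin of mice of a C57BL/DBA/FVB mixed strain, 30 days after birth. The 9 samples were RNA pools, each on 1 Affymetrix array. Control mice (LC) gave 3 pools, and the transgenic lines, named L60, L84 and LA, gave 2 pools apiece. The series title concerns constitutively active Akt, a kinase that relays growth factor signals, and impaired bone morphogenetic protein signalling. The labels do not give the promoter of the transgene, how the lines differ, the number of mice in a pool or their sex. Where nothing shows that pools came from separate animals, p-values measure only the spread between these samples.

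T cells recognise antigen with a receptor whose signal is carried inside the cell by the CD3 chains, which the kinases Lck and Zap70 and the adaptor Lat relay. B cells use an antibody-like receptor coupled to Cd79a and Cd79b. Mouse skin holds T cells in the dermis and, in the epidermis, a layer of dendritic T cells with a gamma delta receptor. B cells are usually sparse there. Several of the genes are not restricted to lymphocytes: Thy1 is also made by fibroblasts and nerves, Cd4 by some macrophages, and Rac2 and Coro1a by most white blood cells.

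The deposited values are scores, standardised for each probe set to a mean of 0 and an SD of 1 over the 9 arrays. A gene's score is the mean over its probe sets, and a difference between groups is in these SD units. Neither an expression level nor a fold change can be read from them, so a low score does not show that a gene was absent, and the size of a difference says nothing of its fold. In whole skin, a higher score may also reflect more lymphocytes or more RNA per lymphocyte, which cannot be told apart.

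Across the arrays, the lymphocyte markers stood highest in LA. The median score of the 31 genes was -0.321, -0.646 and -0.486 on the 3 LC arrays and -0.333 and -0.284 on the L60 arrays. It was -0.561 and 0.263 on the L84 arrays and 0.811 and 1.19 on the LA arrays. Both LA arrays thus lay above every other array, while L84 1 lay within the LC range and L84 2 above it. The median over all 12393 genes stayed between -0.14 and 0.071 on the 9 arrays.

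**Figure D1:**
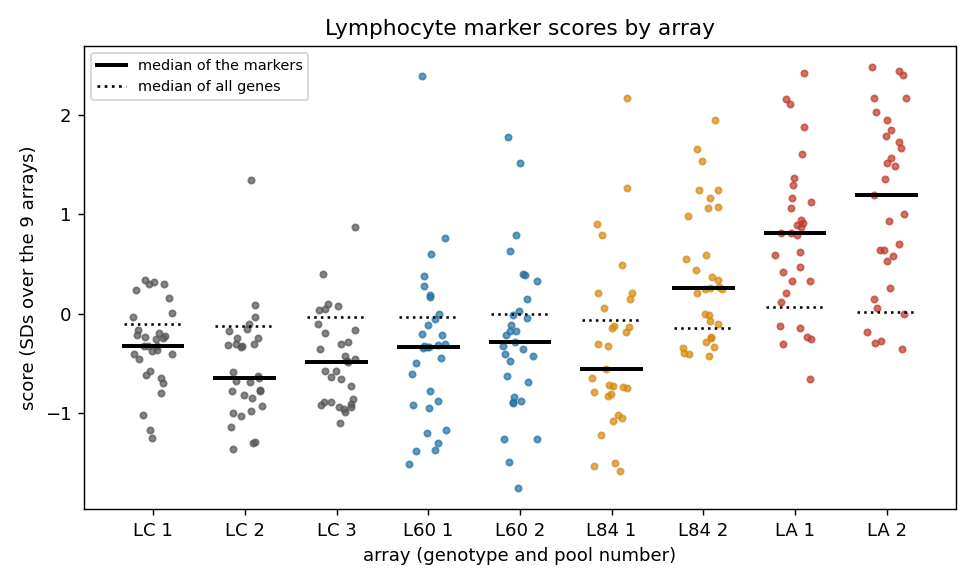
Score of each of the 31 lymphocyte markers (points, coloured by genotype) on each of the 9 arrays, in SDs over the arrays. Solid bars mark the median of the markers and dotted bars the median of all genes; the solid bars of LA (0.811 and 1.19) lie above all others.

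Some arrays differed in ways that the genotypes do not explain. Probe sets for 18S ribosomal RNA averaged 1.13, 2.09 and 0.339 on LC 1, L60 1 and L84 1 and -0.642 to -0.528 on the other 6 arrays. The SD of the scores on an array was 1.31 on LA 2 and 1.2 on L84 1, against 0.764 to 0.907 elsewhere. Xist, an RNA made from an inactive X, had scores of -1.06 to -0.822 on the 4 arrays numbered 1 and of 0.077 to 1.48 on the remaining 5. Medians within these splits are given beside the comparisons of LA and L84.

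LA was compared with LC first. Of the 31 markers, 30 scored higher in LA, with a median difference of 1.47 and a range of -0.314 to 2.35. Over all genes the median difference was 0.247, and 56.1% of genes scored higher. For 23 markers (74.2%) both LA arrays lay above all 3 LC arrays, as they did for 27.8% of all genes. With limma's test without variance moderation and Benjamini-Hochberg adjustment over all genes, 0 of the 31 passed in LA, where 1.8% of all genes passed (0.815% higher and 0.984% lower). At an unadjusted p under 0.05, 13 of the markers (41.9%) were higher and 0 lower, against 10.9% and 9.91% of all genes.

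The excess was present in either LA pool. LA 1 minus LC 1, both low in Xist, gave a median difference of 1.11 with 27 of 31 markers higher, against 0.188 and 56% over all genes. For LA 2 minus the mean of the other LC arrays the median was 2.03 with 30 of 31 higher, against 0.16 and 53.1% over all genes. Among the arrays low in 18S the median was 1.52 with 30 of 31 higher, against 0.252 and 56.3% over all genes. Centring every array on its median over all genes left a median of 1.34, with 29 of 31 higher.

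**Figure D2:**
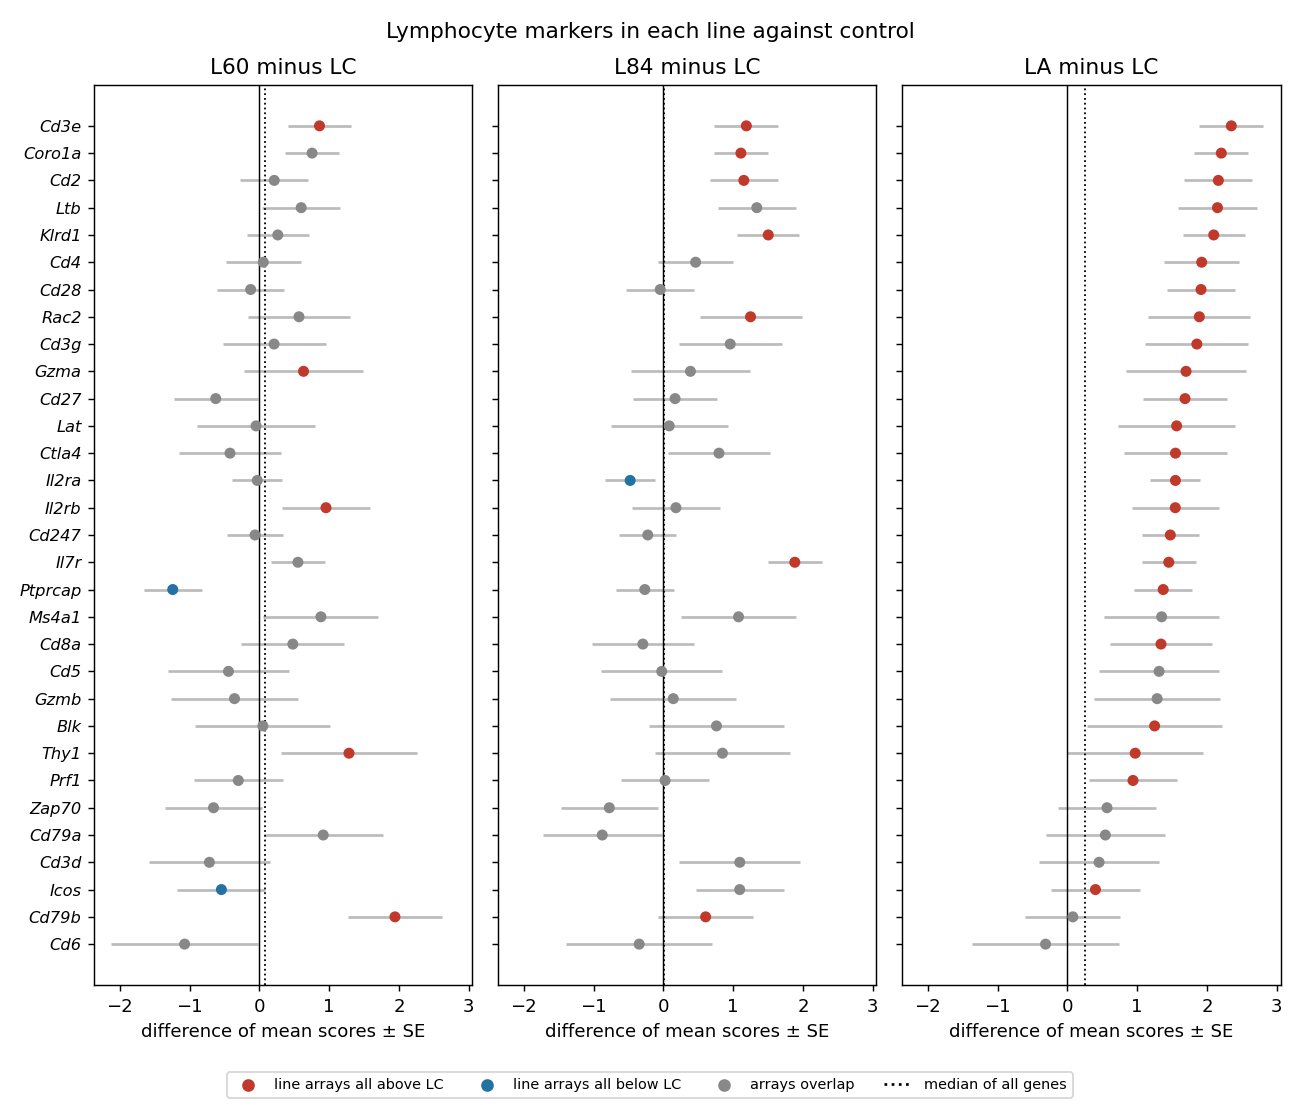
Difference of each marker's mean score from LC, with its SE, in L60, L84 and LA; genes are ordered by the LA difference, red and blue points mark lines whose arrays all lay above or below the LC arrays, and the dotted line is the median of all genes. Nearly the whole LA panel lies to the right of 0 (30 of 31 genes), while the L60 panel is spread over both sides (17 of 31 above 0).

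The invariant chains of the T cell receptor were described first, because they define the lineage. Cd3e, a CD3 chain needed for receptor assembly, scored -1.02, -0.978 and -0.933 on the LC arrays, -0.056 and -0.176 on L60, 0.21 and 0.212 on L84 and 2.16 and 0.58 on LA. Every array of the 3 lines lay above the LC arrays, and the LA arrays lay above all others. The difference from LC was 2.35 ± 0.458 (SE) in LA, 1.19 ± 0.458 in L84 and 0.862 ± 0.458 in L60, with adjusted p = 0.0825, 0.405 and 1 in limma's unmoderated test. The pools of LC and of L84 were close together while those of LA were far apart. Without LA 1 or without LA 2, Cd3e passed in LA (1.56, adjusted p = 0.0132, and 3.14, adjusted p = 0.00387) and in L84 (adjusted p = 0.0161 in either case). LA then has 1 array, so its 2.16 and 0.58 no longer add to the residual spread, which comes from the other groups alone.

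Cd3g, a further CD3 chain, scored -0.227, -0.931 and -0.857 on the LC arrays, -0.946 and 0.0241 on L60, 0.904 and -0.333 on L84 and 2.11 and 0.254 on LA. Only LA lay wholly above LC, by 1.85 ± 0.737 (adjusted p = 0.247). Cd247, the zeta chain that bears most of the signalling motifs, differed from LC by 1.47 ± 0.407 in LA (adjusted p = 0.146), by -0.224 in L84 and by -0.0621 in L60. Its 4 probe sets were all higher in LA than in LC.

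Cd3d, also a CD3 chain, scored 2.17 on L84 1, its highest value, and -0.347 on L84 2, and the LA arrays (0.812 and -0.275) overlapped the LC arrays (0.237, -0.319 and -0.473). The difference from LC was 0.453 ± 0.864 in LA (adjusted p = 0.78). Cd3g, Cd3d and Cd3e lie side by side on chromosome 9 (chr9:44969572-45009663 in GRCm38.p6, a stretch of 40.1 kb). All 3 scored higher on LA 1 than on LA 2. On L84 1, the array on which 9 of the 31 markers had their lowest score, Cd3d and Cd3g scored 2.17 and 0.904.

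The sequences before transcript starts were searched because the markers stood high together. RefSeq's table for GRCm38.p6 held start sites for 18 of the 31 genes, in 21 windows of the 250 bases before a start. These starts need not be the outermost start of the gene. The ETS hexamer GGAAGT, read on both strands (ACTTCC on the other), was in 9 of these windows (42.9%), in 9 genes, against 19.7% of all 32851 windows. ETS factors are transcription factors of many tissues that include lymphocytes. The hexamer TGTGGT of RUNX factors, or ACCACA on the other strand, was in 4 windows (19%, against 14%). For GATA factors the hexamer AGATAA, or TTATCT on the other strand, was in 1 (4.76%, against 9.99%). None of the 3 hexamers contains another, a match is a string of letters and not a bound site, and no test was made. The ETS matches are shown with the bases around them, 30 in all, 5′ to 3′ on the gene's strand, with the hexamer in capitals.
Cd3e (chr9:45009612-45009641, minus strand): agtcccctctacACTTCCtgtgtggggttc
Cd3d (chr9:44981575-44981604, plus strand): aaattcccttacACTTCCtagaattctgaa
Cd247 (chr1:165788611-165788640, plus strand): caaaccttcagaACTTCCtgcctatgaatc
Zap70 (chr1:36764301-36764330, plus strand): gctgtgctatagGGAAGTcaggggacagac
Cd5 (chr19:10739008-10739037, minus strand): gtttcacagggaGGAAGTtgacagttcaac
Il2ra (chr2:11642745-11642774, plus strand): aaaaaaaaaaacACTTCCtatatgagatca
Il7r (chr15:9529908-9529937, minus strand): ccttttgctcagACTTCCtgtttctggcac
Cd79a (chr7:24897431-24897460, plus strand): cacggctgaacaGGAAGTgaggcggagttt
Prf1, distal (chr10:61297626-61297655, plus strand): ccttcacagctgACTTCCtgaaggctgtca
Prf1, proximal (chr10:61297716-61297745, plus strand): gggggcagggcaGGAAGTagtaatgatatg
Against the outermost start of the gene in RefSeq, 5 of the 10 matches (Cd3d, Il2ra, Cd79a and both of Prf1) lay before it and 5 inside the gene. The hexamer of Il2ra began 35 bases before that start and that of Cd3d 182 bases before. Those of Zap70, Cd247, Cd3e, Il7r and Cd5 lay past it, before a start that the table gives further inside. The genes with a match differed widely in the arrays, from 0.453 (Cd3d) to 2.35 (Cd3e) in LA minus LC.

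Both coreceptors stood higher in LA. Cd4, the coreceptor of helper T cells, scored -0.217, -0.688 and -0.723 on the LC arrays, -0.495 and -0.476 on L60, -0.752 and 0.59 on L84 and 0.811 and 1.95 on LA. The LA arrays were the highest of the 9, at a difference from LC of 1.92 ± 0.534 (adjusted p = 0.147), whereas L84 2 stood above LC and L84 1 below it. Cd4 differed from LC by 0.462 ± 0.534 in L84 (adjusted p = 0.794) and by 0.0568 ± 0.534 in L60 (adjusted p = 1). Cd8a, the coreceptor of cytotoxic T cells, scored -1.17, -0.24 and 0.395 on LC and 1.36 and 0.642 on LA. Its LC arrays were far apart, and the LA difference was 1.34 ± 0.735 (adjusted p = 0.355). In L84 Cd8a scored -1.53 and 0.263, a difference of -0.295 ± 0.735 (adjusted p = 0.923), and in L60 it differed by 0.479 ± 0.735 (adjusted p = 1).

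Of the relays of the receptor, Zap70, the kinase that binds the phosphorylated CD3 chains, overlapped between LA and LC (0.874 and 0.644 against -0.377, 0.088 and 0.866). Its LA difference was 0.567 ± 0.696 (adjusted p = 0.65). Zap70 scored lowest on L84 1 (-1.5), and it differed from LC by -0.775 ± 0.696 in L84 (adjusted p = 0.719) and by -0.657 ± 0.696 in L60 (adjusted p = 1). Lat, the membrane scaffold that Zap70 phosphorylates, rested on 1 array: it scored 2.42 on LA 1 and -0.00435 on LA 2, both above the LC range of -0.454 to -0.307. The difference was 1.56 ± 0.839 (adjusted p = 0.347).

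**Figure D3:**
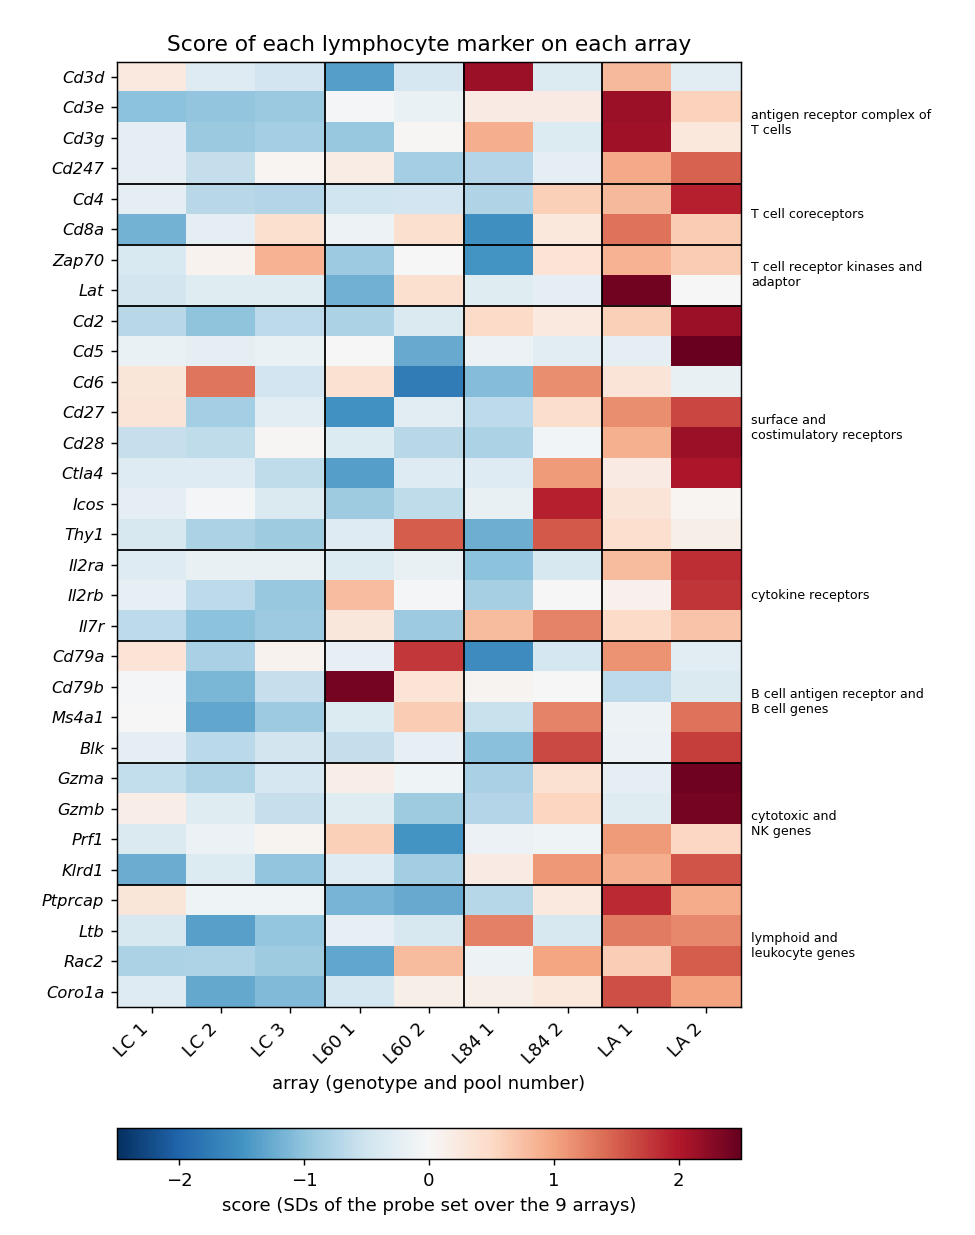
Heat map of the score of each of the 31 markers (rows, grouped by role) on each of the 9 arrays (columns, separated by genotype), from blue (low) to red (high) in SDs over the arrays. Red cells gather in the LA columns, where 24 of the 31 genes (77.4%) had their highest score, against 33.9% of all genes. LA 1 and LA 2 carry the red cells in different genes.

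Of the 8 surface receptors of T cells, 7 scored higher in LA and 6 lay wholly above LC, against 56.1% and 27.8% of all genes. Cd2, an adhesion receptor of T and NK cells, scored -0.693, -1 and -0.657 on LC, -0.782 and -0.36 on L60, 0.488 and 0.249 on L84 and 0.59 and 2.17 on LA. Both L84 and LA lay wholly above LC, by 1.15 ± 0.489 (adjusted p = 0.447) and by 2.16 ± 0.489 (adjusted p = 0.107). Without LA 1 the Cd2 difference in LA was 2.95 and passed (adjusted p = 0.0359), and without LA 2 it was 1.37 and did not (adjusted p = 0.172). In both fits LA is 1 array, assumed to vary like the other groups. Cd28, the main costimulatory receptor, scored -0.572, -0.628 and 0.0381 on LC and 0.889 and 2.16 on LA. Its difference was 1.91 ± 0.483 in LA (adjusted p = 0.129) and close to 0 in L84 and L60 (-0.0455 and -0.125).

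Ctla4 and Icos, which belong to the family of Cd28 and lie next to it on chromosome 1 (chr1:60746388-61000322), were less alike. Ctla4, an inhibitory receptor, differed by 1.55 ± 0.734 in LA (adjusted p = 0.303), with scores of 0.212 and 2.03. Both LA arrays were above LC, although 4 arrays (LC 1, LC 2, L60 2 and L84 1) shared a single score of -0.321. Icos, an inducible costimulator, scored highest on L84 2 (1.95), and LA exceeded LC by 0.402 ± 0.631 (adjusted p = 0.73). Its 2 probe sets had opposite signs in LA, which held for no other of the 12 markers with several probe sets. In L84 minus LC, probe sets of 6 of the 12 had opposite signs (Cd247, Cd28, Cd4, Cd8a, Il2rb and Prf1). In L60 minus LC, those of 5 did (Cd247, Cd4, Il2ra, Il7r and Prf1). In all, 44 of the 46 probe sets were higher in LA than in LC.

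Cd27, a receptor of the tumour necrosis factor family on T and B cells, differed by 1.69 ± 0.599 in LA (adjusted p = 0.213), with scores of 1.16 and 1.67 against 0.318, -0.851 and -0.284 on LC. Cd5, which restrains antigen receptor signals, rested on LA 2 alone, at 2.48 against -0.23 on LA 1 and -0.245 to -0.16 on LC. Cd6, its relative, was the 1 marker that scored lower in LA. It differed by -0.314 ± 1.05 (adjusted p = 0.879), and its scores ran from -1.75 on L60 2 to 1.34 on LC 2. Thy1, a surface protein of T cells and fibroblasts, scored 0.419 and 0.145 on LA against -0.4, -0.782 and -0.885 on LC, a difference of 0.971 ± 0.971 (adjusted p = 0.58). Its highest scores were on L60 2 (1.52) and L84 2 (1.53), and its lowest on L84 1 (-1.22). The differences from LC were 1.28 ± 0.971 in L60 (adjusted p = 1) and 0.846 ± 0.971 in L84 (adjusted p = 0.792).

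The 3 cytokine receptor genes lay wholly above LC in LA, as did 27.8% of all genes. Il2ra, the alpha chain of the interleukin 2 receptor, scored -0.321, -0.178 and -0.195 on LC, -0.346 and -0.176 on L60, -1.02 and -0.399 on L84 and 0.79 and 1.84 on LA. Only in LA was it above LC, by 1.55 ± 0.358 (adjusted p = 0.11), and in L84 both arrays were below LC, by -0.476 ± 0.358 (adjusted p = 0.667). Il2rb, a signalling chain of the receptors for interleukins 2 and 15, differed by 1.55 ± 0.626 in LA (adjusted p = 0.252), with 0.112 and 1.79 on the 2 arrays. Both L60 arrays also lay above LC, by 0.955.

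Il7r, the interleukin 7 receptor of T cells and innate lymphoid cells, scored -0.647, -1.03 and -0.914 on LC, 0.279 and -0.902 on L60, 0.792 and 1.25 on L84 and 0.472 and 0.704 on LA. L84 stood highest, at 1.88 ± 0.388 above LC (adjusted p = 0.18), the largest difference of any marker in that line. LA was 1.45 ± 0.388 above LC (adjusted p = 0.14), and both L84 arrays lay above both LA arrays, with LA minus L84 at -0.431 ± 0.425 (adjusted p = 0.686). Its 2 probe sets agreed in sign in L84 and LA and not in L60.

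The 4 B cell genes had a median difference of 0.896 in LA, 0.683 in L84 and 0.898 in L60. Cd79a, the alpha chain of B cell receptor signalling, scored 0.334, -0.818 and 0.096 on LC, -0.203 and 1.77 on L60, -1.58 and -0.43 on L84 and 1.12 and -0.29 on LA. The groups overlapped, with an LA difference of 0.544 ± 0.851 (adjusted p = 0.73). In L84 the difference was -0.876 ± 0.851 (adjusted p = 0.749) and in L60 0.915 ± 0.851 (adjusted p = 1). Cd79b, its partner, scored highest on L60 1 (2.39) and L60 2 (0.332), and the LA arrays (-0.654 and -0.358) lay within the LC range of -1.14 to -0.0314. It differed from LC by 1.94 ± 0.68 in L60 (adjusted p = 1) and by 0.0777 ± 0.68 in LA (adjusted p = 0.955). The 2 chains of this receptor had their highest scores on different L60 arrays.

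Ms4a1, which encodes the B cell surface protein CD20, scored 0.00321, -1.3 and -0.908 on LC and -0.125 and 1.35 on LA, a difference of 1.35 ± 0.824 (adjusted p = 0.394). On L84 2 it scored 1.24, and the differences were 1.08 ± 0.824 in L84 (adjusted p = 0.67) and 0.882 ± 0.824 in L60 (adjusted p = 1). Blk, a Src family kinase of B cells and some gamma delta T cells, likewise scored 1.66 on L84 2 and 1.73 on LA 2, and -1.05 on L84 1. Of the 4 B cell genes, 1 (Blk) lay wholly above LC in LA, where 27.8% of all genes did. All 4 had a positive L60 difference, from 0.0505 (Blk) to 1.94 (Cd79b), and 3 of them rested on L60 pools that overlapped LC.

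Among cytotoxic genes, LA 2 carried the highest scores. Gzma, the granzyme A protease, scored -0.62, -0.766 and -0.427 on LC and -0.25 and 2.44 on LA, a difference of 1.7 ± 0.857 (adjusted p = 0.325). It differed by 0.387 ± 0.857 in L84 (adjusted p = 0.909) and by 0.633 ± 0.857 in L60 (adjusted p = 1). Gzmb, granzyme B, scored 2.4 on LA 2 and -0.302 on LA 1, the same score as on LC 2 and L60 1, and did not separate (1.29 ± 0.905, adjusted p = 0.448). Prf1, the pore-forming perforin, had the reverse order of the LA pools, with 1.06 on LA 1 and 0.525 on LA 2, and differed by 0.939 ± 0.636 (adjusted p = 0.434).

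Klrd1, the CD94 receptor of NK cells and some T cells, was the cytotoxic gene that separated in both L84 and LA. It scored -1.25, -0.335 and -0.993 on LC, -0.313 and -0.875 on L60, 0.212 and 1.08 on L84 and 0.908 and 1.57 on LA. All 4 arrays of L84 and LA lay above LC. The differences were 1.5 ± 0.446 (adjusted p = 0.31) and 2.1 ± 0.446 (adjusted p = 0.096).

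The lymphoid and leukocyte genes (Ptprcap, Ltb, Rac2 and Coro1a) had the highest median difference of the 8 role groups in LA (2.02 over 4 genes). All 4 lay wholly above LC, as did 27.8% of all genes. Coro1a, an actin regulator of leukocytes, scored -0.326, -1.29 and -1.1 on LC, -0.449 and 0.15 on L60, 0.145 and 0.266 on L84 and 1.6 and 0.997 on LA. It had the smallest p of the markers in LA, at 2.2 ± 0.385 (adjusted p = 0.0699), and was 1.11 ± 0.385 above LC in L84 (adjusted p = 0.37) and 0.755 ± 0.385 above LC in L60 (adjusted p = 1). Ltb, the membrane-bound lymphotoxin that organises lymphoid tissue, scored 1.29 and 1.19 on LA against -0.406, -1.36 and -0.957 on LC, a difference of 2.15 ± 0.56 (adjusted p = 0.133). It scored 1.27 on L84 1 and stood on L84 2 at the score of LC 1 and L60 2 (-0.406), a difference of 1.34 ± 0.56 in L84 (adjusted p = 0.441).

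Rac2, a GTPase of blood cells, scored 0.616 and 1.52 on LA against -0.892 to -0.781 on LC, a difference of 1.89 ± 0.73 (adjusted p = 0.238). The L60 pools of this gene were far apart (-1.3 and 0.787). Ptprcap, which binds the CD45 phosphatase in lymphocytes, scored 0.299, -0.107 and -0.102 on LC, -1.17 and -1.26 on L60, -0.718 and 0.245 on L84 and 1.87 and 0.931 on LA. It lay below LC in L60, by -1.24 ± 0.412 (adjusted p = 1), and above LC in LA, by 1.37 ± 0.412 (adjusted p = 0.164). The LA minus L60 difference of 2.61 ± 0.452 was the largest of any marker between those lines (adjusted p = 0.107).

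The markers did not all peak on the same LA array. Of the 31, 15 had their highest score on LA 2 and 9 on LA 1, against 21.1% and 12.8% of all genes. The LA 1 group held Cd3e, Cd3g, Lat, Cd8a, Zap70, Prf1, Ptprcap, Ltb and Coro1a. The LA 2 group included Gzma, Gzmb, Cd5, Cd2, Cd4, Cd28, Ctla4, Il2ra and Il2rb. For 10 markers (32.3%) the LA arrays were the 2 highest of the 9, as for 9.97% of all genes.

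The comparison of L84 with LC gave a smaller difference that rested on 1 pool. The median difference was 0.462, with 22 of 31 markers higher, against 0.00308 and 50.1% over all genes. With limma's unmoderated test 0 of 31 passed (0.565% of all genes did, 0.161% higher and 0.403% lower), and at an unadjusted p under 0.05, 4 were higher and 0 lower (5.76% and 6.45% of all genes). These 4 were Il7r, Klrd1, Coro1a and Cd3e. In 7 markers (22.6%) both L84 arrays lay above LC, as in 13.8% of all genes: the same 4, with Cd2, Rac2 and Cd79b.

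The 2 L84 pools disagreed. L84 2 scored above L84 1 in 25 of 31 markers (46.5% of all genes). Against the mean of LC 2 and LC 3, the median for L84 2 was 0.842 with 26 of 31 higher, while L84 1 minus LC 1, both high in 18S and low in Xist, had a median of -0.186 with 14 of 31 higher. Over all genes these medians were -0.0335 and 0.00879, with 48.5% and 50.2% higher. Without L84 2 the median difference from LC was 0.00772, and without L84 1 it was 0.71. Cd4, Cd8a, Zap70, Thy1, Il2ra, Cd79a, Blk, Gzma and Cd28 (9 of 31, against 21.5% of all genes) each had their lowest score on L84 1, and Cd3d had its highest score there.

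The L60 markers were spread around the LC values. The median difference was 0.0568, with 17 of 31 higher (54.8%), against 0.0777 and 54.8% of all genes. None passed limma's unmoderated test (0% of all genes did), and at an unadjusted p under 0.05, 1 marker was higher (Cd79b) and 1 lower (Ptprcap), against 2.45% and 2.27% of all genes. In 5 markers (Cd3e, Thy1, Il2rb, Cd79b and Gzma; 16.1%) both L60 arrays lay above LC, and in 2 (Icos and Ptprcap; 6.45%) below, against 14.4% and 10.8% of all genes. Without LC 2, or with array medians set to 0, the median turned to -0.00347 and -0.014.

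Between lines, 0 of 31 markers passed in LA minus L60, LA minus L84 or L84 minus L60, where 0.629%, 0.0161% and 0.113% of all genes passed. Split by direction, 0.169% of all genes were higher and 0.46% lower in LA than in L60. In LA minus L84 the shares were 0.00807% higher and 0.00807% lower, and in L84 minus L60 0.0161% higher and 0.0968% lower. The difference was above 0 for 28 markers in LA minus L60 (54.4% of all genes), 27 in LA minus L84 (53.6%) and 22 in L84 minus L60 (46.6%). LA arrays lay above both L60 arrays for 19 markers (61.3%, against 26.8% of all genes) and above both L84 arrays for 15 (48.4%, against 20%). At an unadjusted p under 0.05, 10 markers were higher in LA than in L60 and 5 higher in LA than in L84, against 7.84% and 7.03% of all genes. None was lower in either, against 8.32% and 3.6%. In L84 minus L60, 1 was higher and 0 lower, against 3.09% and 4.94% of all genes. In the F test over the 4 genotypes 0 of 31 passed (0.734% of all genes), and 10 (32.3%) had an unadjusted p under 0.05, against 14.8% of all genes. The comparisons with LC share the 3 LC pools, and those between lines share the line pools, so their values are not independent of each other.

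Further lymphocyte genes were taken from other lists. Of 30 further T cell genes 21 were measured, and all 21 scored higher in LA, with a median of 1.25 and 16 wholly above LC. Ctsw, the lymphocyte cathepsin W, passed in LA (2.37 ± 0.249, adjusted p = 0.0252, limma's unmoderated test). It scored -1.26, -0.982 and -1.1 on LC, -0.0365 and -0.318 on L60, 0.728 and 0.462 on L84 and 0.892 and 1.61 on LA, so that L60, L84 and LA all lay above LC. Ctsw passed in 5 of 17 alternatives, and not with the replicate block (adjusted p = 0.235) or without the 3 arrays high in 18S (adjusted p = 0.223). A list for gamma delta T cells and NK cells had 10 measured genes, 1 of them (Il2rb) also a marker above. The genes of the gamma delta receptor itself were not among those measured, so the list does not single out gamma delta T cells. All 10 were higher in LA, with a median of 1.5, and 0 passed. All 15 measured genes of B and plasma cells were higher in LA, with a median of 0.723, and 0 passed. Of these 15, 4 lay wholly above LC, a share no higher than the 27.8% of all genes that did so.

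Markers of other white blood cells stood high in LA too. The pan-leukocyte genes had a median difference of 1.95, with 18 of 18 higher and 0 passing, and their mean score was 1.25 and 0.865 on LA against -1.04 to -0.435 on LC. Ptprc, the CD45 phosphatase of all white blood cells, differed by 2.05 ± 0.638 in LA (adjusted p = 0.174). All 20 macrophage and dendritic cell markers were higher in LA, with a median of 1.53, a mean score of 1.24 and 0.747 on LA and of -0.642 to -0.472 on LC. In this list Cd207, the langerin of Langerhans cells, passed at 2.49 ± 0.127 (adjusted p = 0.00472), and Cd74, the invariant chain of class II presentation, at 2.45 ± 0.295 (adjusted p = 0.0347). Cd207 passed in 12 of 17 alternatives and Cd74 in 5. Neither passed with the replicate block (adjusted p = 0.105 and 0.253) or without the 3 arrays high in 18S (adjusted p = 0.173 and 0.186). The 8 mast cell markers were all higher, with a median of 1.67. The median differences of these lists were positive in the other lines as well, and smaller. The pan-leukocyte median was 0.953 in L84 (17 of 18 higher) and 0.719 in L60 (15 of 18). For mast cell markers it was 1.1 in L84 (8 of 8) and 0.63 in L60 (6 of 8). For macrophage and dendritic cell markers it was 0.31 in L84 (14 of 20) and 0.522 in L60 (19 of 20). The pools of these lines disagreed on that list. Its mean score was -0.708 on L60 1 and -0.884 on L84 1, both below every LC array. It was 0.711 on L60 2 and 0.571 on L84 2. Whether the lymphocyte markers move with these cells for a common reason was not tested.

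Tissues that could bring lymphocytes into a skin sample were examined with their own markers. The 5 measured genes of lymph node stroma had a median difference of 1.11 in LA, with 4 of 5 higher. Of these 5, 1 lay wholly above LC, as did 27.8% of all genes. Their mean score was 0.652 and 0.592 on LA against 0.497, -0.594 and -0.41 on LC. The 4 thymocyte genes had a median of 0.902, with mean scores of 0.096 and 1.43 on LA and -0.106 to 0.0848 on LC, and 8 neutrophil genes a median of 1 with 7 of 8 higher. The neutrophil mean score was -0.000332 on LA 1, within the LC range of -0.165 to 0.165, and 1.32 on LA 2. Red cell genes, a measure of blood, had a median of -0.386 with 2 of 5 higher, and platelet genes 0.143 with 3 of 6 higher. Of the red cell genes, Hba-a1 lay wholly above LC (2.17 and 1.08 on LA against -0.607 to -0.231) and Slc4a1 wholly below. The red cell mean score was 0.28 and 0.373 on LA against 0.85, 0.0566 and -0.027 on LC. None of the genes in these 5 lists passed in LA. Since scores carry no level, it cannot be read whether any of these markers was detected at all, and their part in the lymphocyte scores was not tested.

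**Figure D4:**
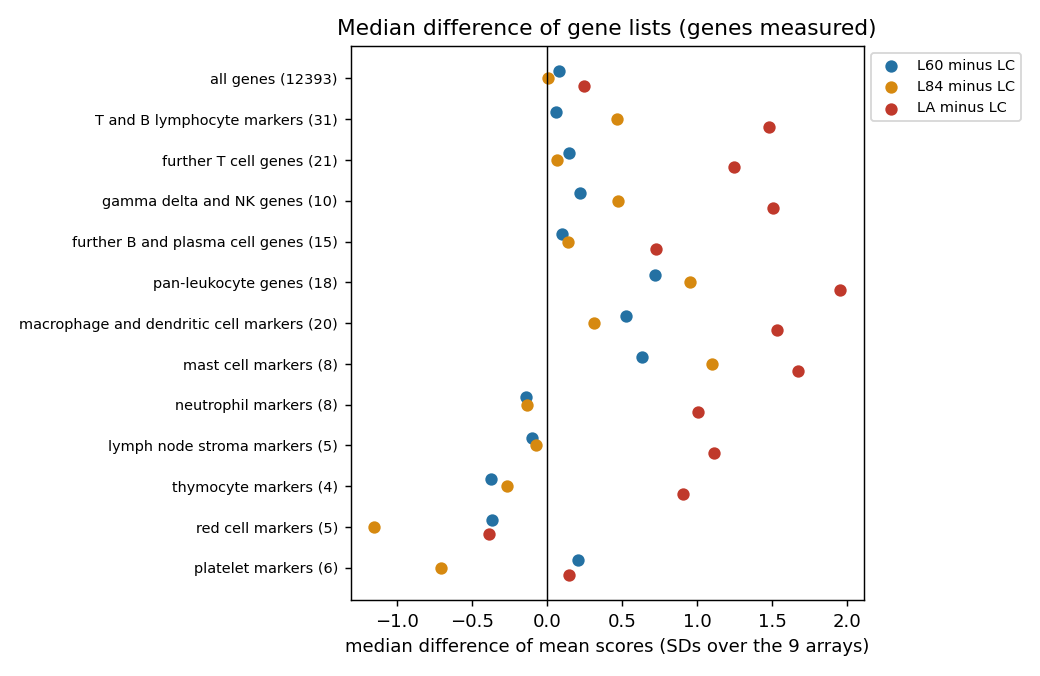
Median difference of mean scores from LC, in SDs over the 9 arrays, for each gene list (number of measured genes in brackets) in L60 (blue), L84 (orange) and LA (red). The lymphocyte markers (1.47), pan-leukocyte (1.95), macrophage (1.53) and mast cell (1.67) lists lie to the right of all genes (0.247) in LA. So do the further T cell (1.25), gamma delta and NK (1.5) and further B and plasma cell (0.723) lists. The lymph node stroma (1.11), neutrophil (1) and thymocyte (0.902) lists lie there as well, and the red cell (-0.386) and platelet (0.143) lists do not.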

How the data were processed

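The 9 arrays hold 1 RNA pool each, from 30 mg of skin per the labels' protocols. Per the submitters' processing notes RMA was used, of a version not given there. What the authors deposited is a score per probe set, whose row mean is within 1.9e-07 of 0, and whether they were on a log scale before standardisation is not given in the sources used here. Probe sets were named from the platform annotation: of 22690, 64 were Affymetrix controls, 20380 named 1 gene, 691 several and 1555 none. Gene scores are means over probe sets, and 12 of the 31 markers have several. Gene scores were tied (within 1e-06) on some arrays in 6 markers, and within a genotype in 3 (Lat, Cd5 and Ctla4), which narrows their residual spread. In genes with several probe sets the mean hides ties of a single probe set, and 44.3% of all probe sets had tied scores.

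Groups came from the sample titles. Group means were fitted over all 9 arrays with limma 3.58.1 in R 4.3.3 (5 residual degrees of freedom) and tested without variance moderation, since scores have no common variance scale. A call means an adjusted p (Benjamini-Hochberg, over all genes of a contrast) below 0.05. The design was written for this test, and the script was tested on simulated data. The markers, lists and alternatives were chosen with earlier results of these data known. By the rule for names, all measured markers are named with their role and scores or range, with full statistics for called members, the 3 largest differences and 3 smallest p of each line, and Cd3e, Cd4, Cd8a, Lck, Zap70, Cd79a, Ms4a1, Gzma and Thy1. Of every other list up to 3 called genes are named, and Ptprc, Hba-a1 and Slc4a1 were added after their values were seen. Alternatives were moderated variance, each array left out, only the groups compared, a replicate block, single probe sets, array medians set to 0, Xist as a covariate, and fits without the 18S-rich arrays or without those of wide scores. The number of arrays limits the precision.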

Additional observations from a re-analysis of the deposited data

Results flagged for a closer look

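Both arrays of a line lay above LC and both of another line below LC for 3 markers. Icos differed by 0.946 between LA and L60 (adjusted p = 0.523), Ptprcap by 2.61 between LA and L60 (adjusted p = 0.107) and Il2ra by 2.02 between LA and L84 (adjusted p = 0.266), none of which passed limma's unmoderated test of the difference between the lines. The same opposite placement held for 3.91% of all genes in L60 and LA (2 of 31 markers) and for 1.39% in L84 and LA (1 of 31).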

How the results depend on the processing

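Across the alternatives the median difference of the markers in LA stayed between 1.21 and 1.9, with each array left out in turn covering that whole range. It ran from 0.00772 to 0.71 in L84 with each array left out and was 0.842 without the 3 arrays high in 18S. In L60 it ran from -0.014 to 0.284. With each array left out, markers passed only in fits without LA 1 or without LA 2, where LA is 1 array and adds nothing to the residual spread. These were Cd3e, in LA against each other group, in L84 against LC and in the F test, and Cd2 in LA against LC without LA 1. Without LC 1, LC 2 or LC 3, 0 markers passed in LA against LC, where 97, 45 and 51 of 12393 genes did. With only the 2 groups compared, Cd3e alone was called in L84 against LC, where 19 of 12393 genes were. Cd3e was also called with L84 1 and LA 2, which have wide scores, left out, in LA against LC and L60 and in the F test. That fit leaves 1 array in each of L84 and LA. With the replicate number as a block, 0 markers were called and the medians were 0.0945, 0.476 and 1.44 in L60, L84 and LA. Same-numbered pools did not deviate together in every pair (correlations over all genes of -0.0833 to 0.345), and the labels tie no number to a shared batch, so the number was not taken as a pairing. It does go with Xist, low on all 4 arrays numbered 1, and the 3 arrays high in 18S are among those 4. The block lowered the number of genes called in LA from 223 to 1. In LA 13 of 527 single differences under an alternative turned their sign, against 32 in L60 and 41 in L84. Some alternatives leave a difference from LC unchanged: moderated variance, only the 2 groups compared, and an array of another line left out. Differences under those are among the 527 and could not turn. With moderated variance 0 genes were called in any comparison, so Ctsw, Cd207 and Cd74 lost their calls in LA. For L84 against LC, scores were simulated with shifts of 5, 10 and 20 residual SDs in 50, 100 and 50 of 12393 genes. The moderated test called none of these, and the unmoderated test called 22%, 95% and 100%. The number of genes that shift in the data is not known and no other comparison was simulated, so the simulation does not settle what the 0 means. Scores hold no signal over background, so a limit set by dim probe sets cannot be given.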
